A study of Mus musculus with 18 samples.

Results

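The effect of losing Hif1a and Ahr together was set against the sum of the effects of losing each alone, gene by gene, in cultured mouse NK cells. All 18 libraries of the series entered, and 16747 of 56953 gene identifiers had enough counts to be tested. The 6 groups, each with 3 biological replicates, were Hif1a Ahr KO (Ncr1 iCre with both Hif1a fl/fl and Ahr fl/fl), Hif1a Ahr flox (the floxed alleles of both genes without Cre), Hif1a KO (Ncr1 iCre with Hif1a fl/fl), Hif1a flox, Ahr KO (Ncr1 iCre with Ahr fl/fl) and Ahr flox. NK cells of all groups came from spleen and were cultured under hypoxia (1% oxygen) over 7 days. The medium held human IL-2 at 1700 U/ml, and no group shows the cells in normal oxygen. Cre is driven by Ncr1, the gene of the NK receptor NKp46, by the name of the line, so deletion was directed to cells that express Ncr1. The labels give neither the animals' age nor whether spleens were pooled, and where replicates do not come from separate mice the p-values measure only the spread between these samples. Each double effect and each single effect was measured relative to flox libraries of the same line, and the 3 comparisons share no library.

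HIF-1 and AhR belong to the same family of basic helix-loop-helix PAS transcription factors and both bind DNA with the partner Arnt. HIF-1α, encoded by Hif1a, is degraded in oxygen and accumulates without it, and then switches on glycolysis, glucose uptake, and genes of survival in low oxygen. AhR is switched on by ligands such as dioxins and tryptophan products, and induces the detoxifying enzymes and its own repressor Ahrr. If the losses act independently on a transcript, their effects multiply, which on the log2 scale is a sum. The departure is the Hif1a Ahr KO effect minus that sum (log2 fold change, KO against flox). A positive departure means that Hif1a Ahr KO cells held more transcript than the sum gives, a negative one that they held less. Because every KO group carries Cre and no flox group does, an effect shared by all Cre carriers enters the sum 2 times and the double effect 1 time, so it gives a departure of its own size and opposite sign. No group carries Cre without a floxed gene, and so an effect of Cre or of its linked alleles cannot be told apart from a shared effect of both deletions.

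The targeted genes did not check the labels at the level of whole genes. Hif1a had 185, 220 and 170 CPM (counts scaled to library size) in Hif1a Ahr KO libraries, against 58.2, 58.7 and 62.4 CPM in Hif1a Ahr flox libraries, so its transcripts rose where the gene was floxed and Cre was present. In Hif1a KO libraries it had 182, 147 and 211 CPM, against 64.9, 59.5 and 56.5 CPM in Hif1a flox libraries. The double effect of 1.68 equalled the sum of 1.68 (departure 0.00 ± 0.19, SE), since Ahr KO libraries had 65.2 to 68.9 CPM against 59.5 to 66.8 CPM in Ahr flox libraries, a difference that was not called. Ahr was not called in any of the 3 comparisons, with a departure of -1.03 ± 0.35 (adjusted p = 0.74). With the replicate number as a block this departure was called (adjusted p = 0.0082). A gene-level count includes transcripts that lack a deleted exon, so neither gene's level reads out its deletion.

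Across genes the double effect followed the sum closely. Among the 11986 genes that averaged 1 CPM or more, Pearson's r of the double effect with the sum was 0.871 and Spearman's rho 0.765, as a description across genes, which are not independent replicates. The orthogonal slope of the double effect on the sum was 0.927. The spread of the double effects over genes was 0.590 (SD, log2) and that of the sums 0.630. The sum carries more error than the double effect, with a median SE of 0.134 against 0.0944, and such error can lower this slope. The median departure over all 16747 genes was 0.01, with an interquartile range of -0.16 to 0.19.

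Departures from the sum were called, by edgeR's quasi-likelihood F test at a Benjamini-Hochberg adjusted p under 0.05 over all 16747 genes, in 6 genes above the sum (0.0358%) and 0 below it (0%). At an unadjusted p under 0.05 there were 587 genes above (3.51%) and 411 below (2.45%). For comparison, 5245 genes (31.3%) were called in Hif1a Ahr KO, 5923 (35.4%) in Hif1a KO and 1159 (6.92%) in Ahr KO cells. Of the Ahr KO calls 359 were higher (2.14% of genes tested) and 800 lower (4.78%). In Hif1a Ahr KO cells 2482 were higher (14.8%) and 2763 lower (16.5%), and in Hif1a KO cells 2948 higher (17.6%) and 2975 lower (17.8%). A missing call does not show that effects add up, so the 95% interval of each departure was read as well. Among 8293 genes with at least 1 called KO effect, 4096 (49.4%) had an interval that lay wholly within 1.5-fold of the sum in either direction, and 5822 lay within 2-fold. The median half-width of these intervals was 0.389 (log2), so that for many of the other genes the data could show neither a departure nor its absence. Of all 16747 genes tested, 7451 (44.5%) lay within 1.5-fold, and of those that averaged 1 CPM or more, 62.1%. Such shares depend on the width of the intervals as well as on the departures. The count of calls depended on the tool: DESeq2's Wald test called 21 above and 4 below, and a single baseline pooled over all 9 flox libraries gave 75 and 47. With the replicate number of each line as a block, 30 were called above and 5 below, and Ahr KO calls numbered 2423.

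**Figure D1:**
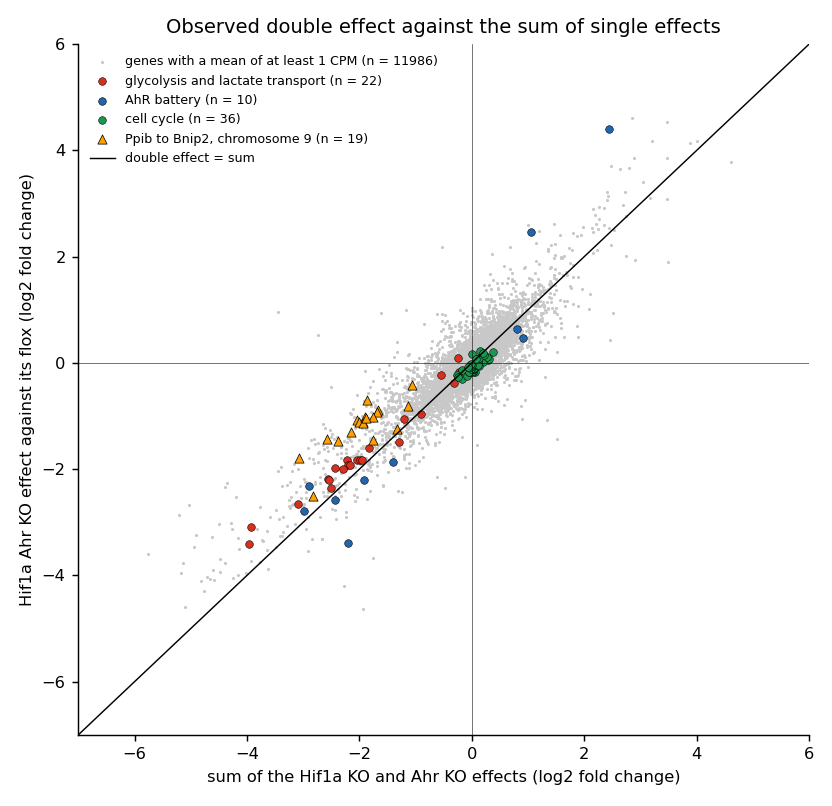
The Hif1a Ahr KO effect (vertical axis, log2 fold change against flox) is plotted against the sum of the Hif1a KO and Ahr KO effects (horizontal axis, log2) for genes that averaged 1 CPM or more, and 2 genes lie outside the axes. Points follow the line of equality (r = 0.871), with glycolysis genes at the lower left slightly above it, cell cycle genes near 0, and the chromosome 9 genes from Ppib to Bnip2 above it.

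The 6 genes called above the sum were Ppib, Rab8b, Usp3, Bnip2, Snx1 and Tpm1, all on chromosome 9. Each fell in all 3 KO groups to a similar level, so that the double effect was about the size of 1 single effect. Bnip2, which encodes an interaction partner of BCL2, had 56.0, 51.7 and 53.2 CPM in Hif1a Ahr KO libraries, against 108, 109 and 113 CPM in Hif1a Ahr flox libraries. It had 55.8, 58.3 and 60.0 CPM in Hif1a KO against 113, 109 and 107 CPM in Hif1a flox libraries, and 54.6, 54.5 and 53.6 CPM in Ahr KO against 101, 107 and 110 CPM in Ahr flox libraries. All 9 KO libraries stood below all 9 flox libraries and the KO groups overlapped one another. The sum gives 29.6 CPM for Hif1a Ahr KO cells, and the departure was 0.86 ± 0.09 (log2, SE; adjusted p = 3.6e-04 by edgeR's quasi-likelihood F test). Ppib, the cyclophilin B of the endoplasmic reticulum, had 145, 127 and 128 CPM in Hif1a Ahr KO libraries, against 259, 283 and 301 CPM in Hif1a Ahr flox libraries and 68.0 CPM by the sum. Its log2 effects were -1.07 in Hif1a Ahr KO, -1.11 in Hif1a KO and -0.94 in Ahr KO cells, with a departure of 0.97 ± 0.11 (adjusted p = 3.6e-04). The ubiquitin protease Usp3 departed by 0.88 ± 0.10, the small GTPase Rab8b by 0.90 ± 0.13, the sorting nexin Snx1 by 0.84 ± 0.12 and the tropomyosin Tpm1 by 0.76 ± 0.13. The calls of Ppib, Rab8b, Usp3, Bnip2 and Snx1 were kept when any of the 18 libraries was left out. That of Tpm1 (adjusted p = 0.047) was kept in 3 of those 18 fits.

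These genes lie within an unbroken run of 22 tested genes from Ppib to Bnip2, in the order of the GENCODE annotation. The run was delimited after the values were seen, from the first to the last called gene of chromosome 9. All 22 departures in it were above 0, from 0.09 to 1.33 with a median of 0.85, and 15 passed an unadjusted p under 0.05. Of the 22 genes, 20 fell in Hif1a Ahr KO, 18 in Hif1a KO and 20 in Ahr KO cells, 16 of them in all 3. The medians were -1.12, -0.92 and -0.98 (log2), and the median sum was -1.92. Among the 10 tested neighbours on either side, 0 of 20 departures were called, which follows from how the run was delimited. Their median was -0.06. Not all genes of the run followed the same rule. The annexin gene Anxa2 fell by 1.80 in Hif1a Ahr KO, by 2.33 in Hif1a KO and by 0.74 in Ahr KO cells. Its departure was 1.27 ± 0.23 (adjusted p = 0.057, but 0.00015 by DESeq2's Wald test and 0.0043 with the replicate number as a block). The nuclear receptor gene Rora had 0.88 in Hif1a KO and -2.22 in Ahr KO cells, and its double effect of -1.25 stood near its sum of -1.34. Dapk2, a death-associated kinase, fell by 2.51 in Hif1a Ahr KO cells against a sum of -2.82 (departure 0.31, unadjusted p = 0.15).

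Just outside the run beside Ppib, 2 genes rose in every KO group and stood below their sums. Trip4, which encodes a transcription coactivator, had 79.5, 73.5 and 71.0 CPM in Hif1a Ahr KO libraries, against 52.1, 54.9 and 44.4 CPM in Hif1a Ahr flox libraries and 122 CPM by the sum. Its departure was -0.71 ± 0.13 (adjusted p = 0.079), below the sum. It was called by DESeq2's Wald test (adjusted p = 0.0018), by limma trend on the deposited values (0.014), with the pooled flox baseline (0.00012) and with the replicate number as a block (0.011). The casein kinase Csnk1g1 had log2 effects of 0.62 in Hif1a Ahr KO, 0.55 in Hif1a KO and 0.45 in Ahr KO cells, with a departure of -0.37 ± 0.16 (adjusted p = 0.81). Trip4 and Csnk1g1 were picked after their values were seen.

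**Figure D2:**
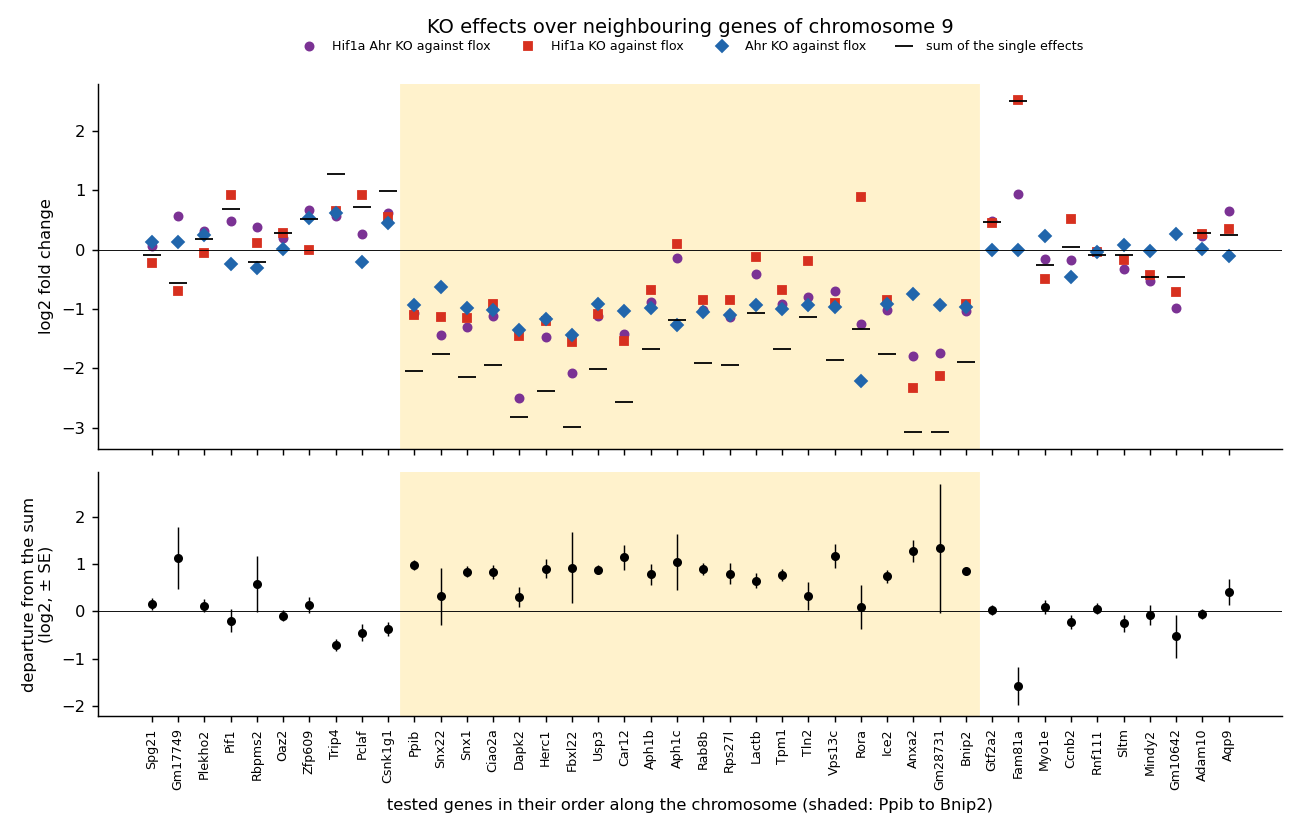
Upper panel, log2 fold changes of the 3 KO groups against their flox groups and the sum of the single effects (dashes) for 42 neighbouring tested genes of chromosome 9. Lower panel, the departure from the sum with its SE. In the shaded run from Ppib to Bnip2 all 22 departures lie above 0 (median 0.85), and the neighbours outside it have a median of -0.06.

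Ncr1, the gene named in the Cre line, showed the mirror image on chromosome 7. It had 249, 244 and 255 CPM in Hif1a Ahr KO libraries, against 129, 101 and 129 CPM in Hif1a Ahr flox libraries. The Hif1a KO libraries had 209, 219 and 258 CPM against 116, 131 and 116 CPM in Hif1a flox, and the Ahr KO libraries 208, 204 and 249 CPM against 101, 118 and 119 CPM in Ahr flox. Ncr1 rose in each line, by 1.06 in Hif1a Ahr KO, 0.92 in Hif1a KO and 0.97 in Ahr KO cells (log2). The sum gives 441 CPM, and the departure of -0.82 ± 0.18 was not called (adjusted p = 0.27). It was called by DESeq2's Wald test (adjusted p = 0.015), with the pooled flox baseline (adjusted p = 0.0071) and without Hif1a Ahr flox replicate 2 (adjusted p = 0.044). The neighbour Lilra5, a leukocyte receptor gene, was near 0 in all 9 flox libraries (0 to 0.019 CPM) and had 0.341, 0.231 and 0.14 CPM in Hif1a Ahr KO, 0.329, 0.358 and 0.212 CPM in Hif1a KO and 0.715, 0.445 and 0.507 CPM in Ahr KO libraries, so no fold is given. Gm15931, beside it, had 1.34, 1.49 and 2.13 CPM in Hif1a Ahr KO, 1.33, 1.48 and 1.54 CPM in Hif1a KO and 5.52, 5.40 and 5.20 CPM in Ahr KO libraries, against at most 0.399 CPM in any flox library. At these low levels the departures of Lilra5 and Gm15931, both below 0, were not called. Both were called by limma trend on the deposited values (adjusted p = 0.0076 and 0.039) and with the pooled flox baseline (0.00014 and 0.0021). Gp6, the platelet collagen receptor gene, rose by 1.21 in Hif1a Ahr KO, 1.14 in Hif1a KO and 2.11 in Ahr KO cells, with a departure of -2.04 ± 0.49 (adjusted p = 0.41, but 0.00059 with the pooled flox baseline) at levels below 1.5 CPM.

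**Figure D3:**
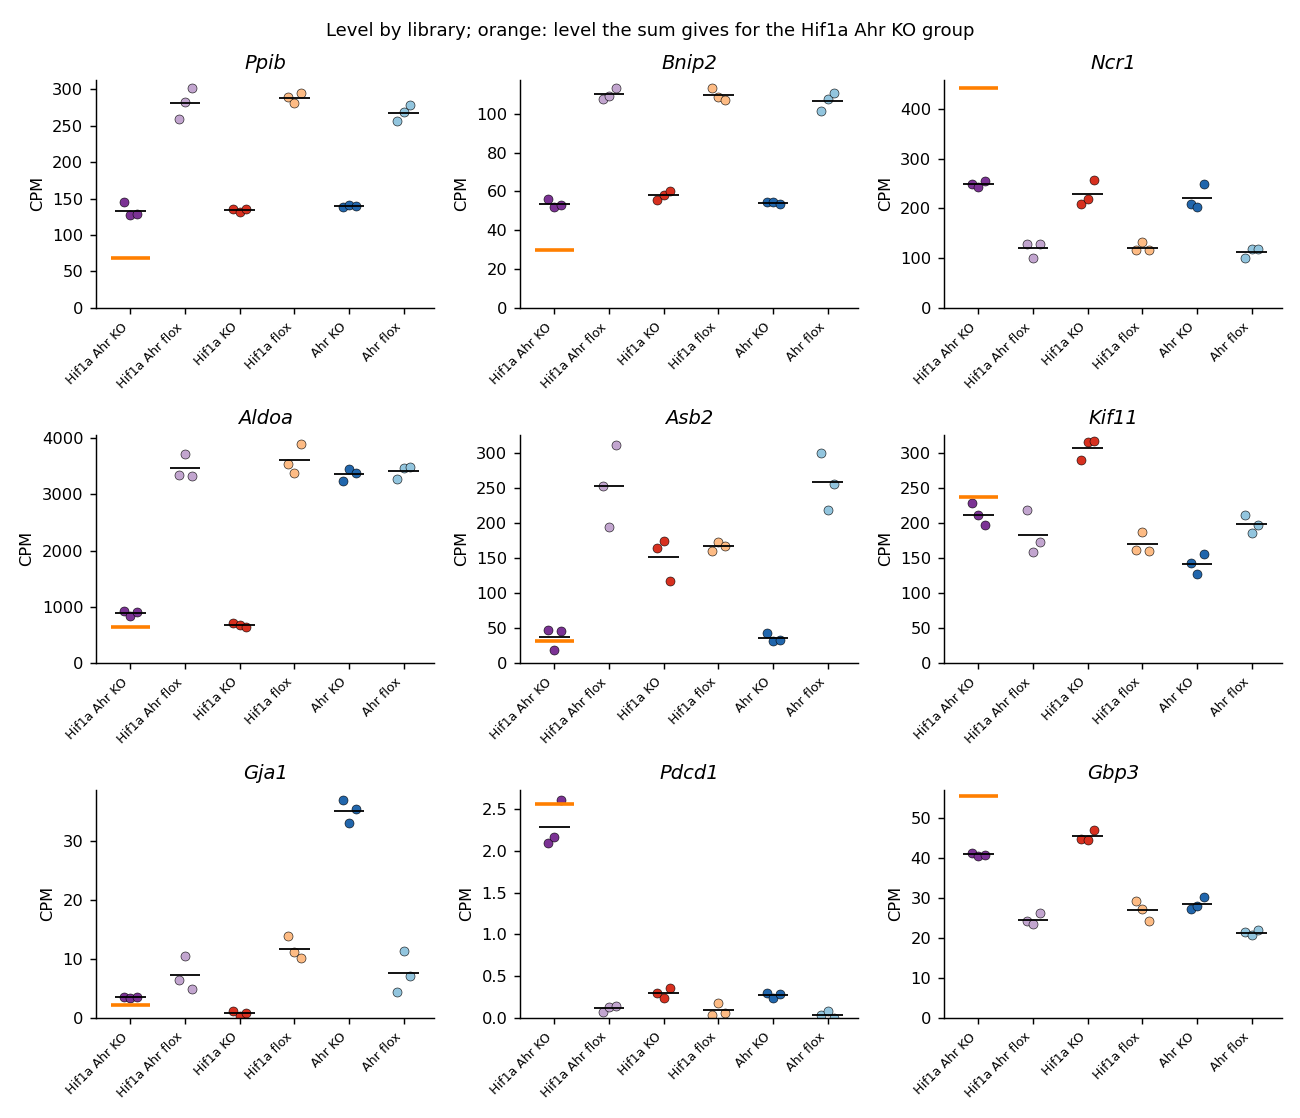
CPM in each library (points) with the group mean (black line) for 9 genes. Every panel starts at 0, and the orange line is the level that the sum of the single effects gives for the Hif1a Ahr KO group. Ppib and Bnip2 stand above the orange line, Ncr1 and Gbp3 below it, and Asb2, Kif11 and Pdcd1 near it.

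Of 22 tested genes of glycolysis and lactate transport, 19 fell in Hif1a Ahr KO, 19 in Hif1a KO and 1 in Ahr KO cells. The list's median double effect was -1.83 and its median sum -2.11. No member's departure was called, 8 of 22 passed an unadjusted p under 0.05 above the sum (3.51% of all genes did) and 0 below, and 19 of 22 departures were above 0 with a median of 0.26. The list was chosen with earlier results of these data known. The aldolase Aldoa had 915, 830 and 908 CPM in Hif1a Ahr KO libraries, against 3348, 3723 and 3328 CPM in Hif1a Ahr flox libraries. The Hif1a KO libraries had 709, 681 and 643 CPM, against 3538, 3374 and 3902 CPM in Hif1a flox libraries, and Ahr KO libraries (3245 to 3446 CPM) overlapped Ahr flox libraries (3273 to 3480 CPM). All Hif1a Ahr KO libraries thus stood above all Hif1a KO libraries and above the 642 CPM of the sum (departure 0.46 ± 0.13, adjusted p = 0.56). The glucose transporter Slc2a1 fell by 1.83 in Hif1a Ahr KO cells against a sum of -2.23, the phosphoglycerate kinase Pgk1 by 2.19 against -2.57, and the phosphofructokinase Pfkl by 2.66 against -3.09. For Pfkm, Hk1 and Slc2a3 the double effect lay at or below the sum, with departures of -0.05, -0.07 and -0.20. The intervals of 9 of 22 members lay within 1.5-fold of the sum.

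Of 28 HIF targets outside glycolysis, 26 fell in Hif1a Ahr KO, 27 in Hif1a KO and 2 in Ahr KO cells. The median double effect was -1.61 and the median sum -2.08. At an unadjusted p under 0.05, 5 members stood above the sum (3.51% of all genes did) and 0 below. The median departure of 0.19 fell to 0.07 with the pooled flox baseline. Members with no visible departure included the mitophagy receptor Bnip3l (-1.53 against a sum of -1.53), the histone demethylase Kdm3a (-1.40 against -1.30), and Fam162a (-2.28 against -2.25). Members above the sum included the collagen hydroxylase P4ha1 (-2.67 against -3.21) and the growth and stress gene Ndrg1 (-1.34 against -1.90), each at an adjusted p of 0.81. Carbonic anhydrase 12 (Car12), at 1.14 ± 0.26 the largest positive departure of the list, lies in the chromosome 9 run. This departure was not called (adjusted p = 0.36), but was by DESeq2's Wald test (0.021) and with the replicate number as a block (0.022). Plod2, a lysyl hydroxylase, fell in both single KO groups, by 0.39 in Hif1a KO and by 0.95 in Ahr KO cells, and by 1.02 in Hif1a Ahr KO cells (departure 0.32 ± 0.11, adjusted p = 0.74). The cytokine gene Mif, also known as a HIF target and picked after its values were seen, had 152, 163 and 186 CPM in Hif1a Ahr KO libraries, against 549, 568 and 698 CPM in Hif1a Ahr flox libraries. Its Hif1a KO libraries had 113, 109 and 102 CPM, against 580, 596 and 620 CPM in Hif1a flox libraries. The Hif1a Ahr KO libraries did not overlap the Hif1a KO ones, and the departure was 0.72 ± 0.15 (adjusted p = 0.19, but 0.0020 by DESeq2's Wald test, 0.0023 with the pooled flox baseline and 0.0099 with the replicate number as a block).

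**Figure D4:**
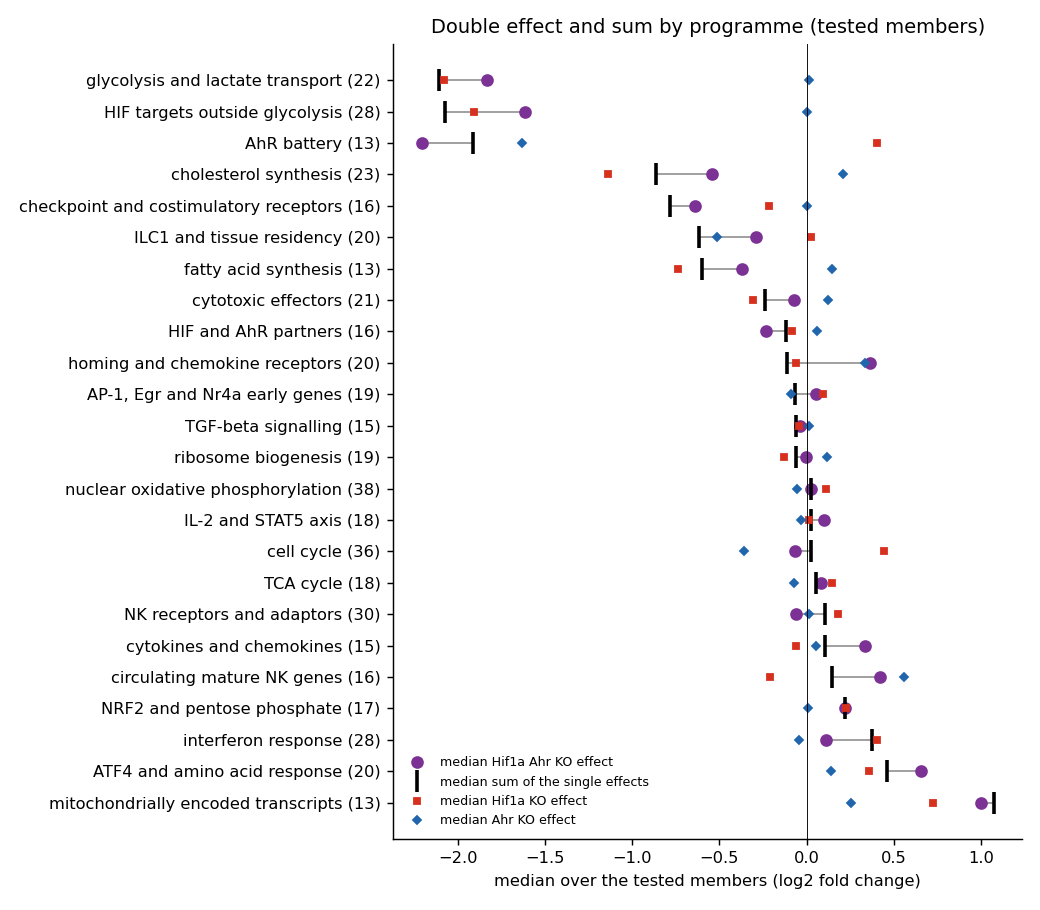
Median log2 effect over the tested members of 24 gene lists (number of members in brackets), for the Hif1a Ahr KO, Hif1a KO and Ahr KO groups against flox and for the sum. The purple dot of glycolysis stands at -1.83 beside a sum of -2.11, that of the cell cycle list at -0.06 beside 0.03, and that of the interferon list at 0.11 beside 0.37.

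Both factors read closely related DNA letters, and 3 promoters show the kinds of pattern met here. They are taken from RefSeq (GRCm38.p6), 250 bases before to 50 bases after the annotated start. Ankrd37 (chr8:45999801-46000100, minus strand), a HIF target of unknown function, stands for genes that moved with Hif1a alone. Ahrr (chr13:74292282-74292581, minus strand), the AhR repressor, stands for the AhR battery described below. Gja1 (chr10:56377050-56377349, plus strand), the gap junction gene of connexin 43, moved in opposite directions. Capitals mark GCGTG and ACGTG on either strand (CACGC and CACGT on the other), the core letters of AhR and HIF sites, of which GCGTG is shared by both factors.
Ankrd37: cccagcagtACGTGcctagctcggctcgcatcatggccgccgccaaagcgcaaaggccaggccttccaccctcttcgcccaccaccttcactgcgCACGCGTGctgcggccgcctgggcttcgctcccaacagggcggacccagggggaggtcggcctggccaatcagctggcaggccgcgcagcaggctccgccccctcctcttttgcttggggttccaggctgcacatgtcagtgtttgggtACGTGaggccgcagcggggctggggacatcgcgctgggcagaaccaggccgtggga
Ahrr: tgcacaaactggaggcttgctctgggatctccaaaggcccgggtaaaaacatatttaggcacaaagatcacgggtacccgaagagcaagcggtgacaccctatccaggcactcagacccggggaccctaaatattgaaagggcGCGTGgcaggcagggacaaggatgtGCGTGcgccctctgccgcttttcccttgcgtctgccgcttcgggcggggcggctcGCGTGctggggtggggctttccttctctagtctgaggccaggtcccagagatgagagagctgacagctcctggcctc
Gja1: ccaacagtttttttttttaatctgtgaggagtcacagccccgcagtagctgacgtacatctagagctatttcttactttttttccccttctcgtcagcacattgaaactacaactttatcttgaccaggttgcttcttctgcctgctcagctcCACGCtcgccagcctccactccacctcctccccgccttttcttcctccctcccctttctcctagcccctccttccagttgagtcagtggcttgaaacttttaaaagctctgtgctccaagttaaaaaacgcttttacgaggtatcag
Over all 32851 promoters of this length, 32.4% held GCGTG, 19.6% ACGTG and 43.8% at least 1 of the 2 motifs. With the first promoter of each matched gene, 15 of 21 glycolysis genes (71.4%), 16 of 21 other HIF targets (76.2%) and 8 of 13 AhR battery genes (61.5%) held at least 1. A match describes letters in this window and not a bound site.

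Ankrd37 had 8.59, 4.45 and 5.96 CPM in Hif1a Ahr KO libraries, against 73.2, 93.0 and 78.6 CPM in Hif1a Ahr flox libraries, and 5.60, 3.33 and 2.47 CPM in Hif1a KO against 79.5, 74.0 and 87.7 CPM in Hif1a flox libraries. Its double effect of -3.69 stood beside a sum of -4.48 (departure 0.80 ± 0.43, adjusted p = 0.85). The 2 KO groups overlapped.

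The AhR battery, the genes that AhR is known to induce, moved in all 3 KO groups. Of 13 tested members, 7 fell and 3 rose in Hif1a Ahr KO cells, 2 fell and 4 rose in Hif1a KO cells, and 8 fell and 0 rose in Ahr KO cells. The list's mean log2 CPM was 2.79 in Hif1a Ahr KO against 3.44 in Hif1a Ahr flox, 3.83 in Hif1a KO against 3.08 in Hif1a flox, and 1.66 in Ahr KO against 3.35 in Ahr flox libraries. The median double effect was -2.21 and the median sum -1.91, and the departures ranged from -2.30 to 7.06 with wide errors. The median departure of -0.15 ranged from -0.19 to 0.20 over other scalings, filters and baselines, and from -0.32 to 0.22 when single libraries were left out, so its sign was not stable. No member's interval lay within 1.5-fold of the sum, and 0 were called. Asb2, a ubiquitin ligase subunit, had 47.3, 17.7 and 44.8 CPM in Hif1a Ahr KO libraries, against 253, 193 and 311 CPM in Hif1a Ahr flox libraries. It had 163, 174 and 117 CPM in Hif1a KO against 160, 173 and 166 CPM in Hif1a flox libraries, and 43.1, 31.5 and 32.3 CPM in Ahr KO against 299, 219 and 255 CPM in Ahr flox libraries. Its double effect was -2.79 and its sum -2.99, with -2.85 in Ahr KO cells. Ahrr fell by 2.59 in Hif1a Ahr KO cells against a sum of -2.44, and the repressor gene Hic1 by 2.21 against -1.91. The intervals of these departures, from -0.92 to 1.32 for Asb2 and from -1.79 to 1.49 for Ahrr, leave room for a more than 2-fold difference.

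A pair of AhR battery genes stood apart from their sums in opposite directions, both uncalled. The selenium-binding protein gene Selenbp1 fell in both single KO groups, by 1.40 in Hif1a KO and by 0.79 in Ahr KO cells. In Hif1a Ahr KO libraries it had 6.90, 3.69 and 5.37 CPM, against 62.0, 56.8 and 47.6 CPM in Hif1a Ahr flox libraries and 12.1 CPM by the sum. Every Hif1a Ahr KO library lay below the sum (departure -1.18 ± 0.31, adjusted p = 0.54, called by DESeq2's Wald test at 0.042). The glucuronosyltransferase Ugt1a7c rose by 2.19 in Hif1a KO and fell by 1.13 in Ahr KO cells. It had 56.3, 77.8 and 66.2 CPM in Hif1a Ahr KO libraries, against 14.3, 10.3 and 11.9 CPM in Hif1a Ahr flox libraries and 25.3 CPM by the sum, and every Hif1a Ahr KO library lay above the sum (departure 1.40 ± 0.31, adjusted p = 0.40, 0.0056 by DESeq2's Wald test and 0.0046 with the pooled flox baseline). Because the Ugt1a cluster uses common exons, counts may have been assigned to the wrong member.

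Genes that moved in opposite directions in the single KO groups had double effects around 0 at the median. This class and those described below rest on calls of the fit without the replicate block, with 1159 Ahr KO calls. With the block there were 2423, and the classes were not formed again from that fit. Of 632 genes called in opposite directions in Hif1a KO and Ahr KO cells, 188 (29.7%) were called in Hif1a Ahr KO cells, 99 higher and 89 lower, beside 31.3% of all genes tested. Their median double effect was 0.01 and their median sum 0.02, and 324 (51.3%) lay within 1.5-fold of the sum. Within the same bounds lay 44.5% of all genes tested and 62.1% of those that averaged 1 CPM or more. The 2 directions differed in their values. The 178 genes that fell in Hif1a KO and rose in Ahr KO cells had a median departure of 0.20, with 31 above and 0 below the sum at an unadjusted p under 0.05, and 32.0% lay within 1.5-fold. The 454 that rose in Hif1a KO and fell in Ahr KO cells had a median departure of -0.08, with 13 above and 17 below, and 58.8% lay within 1.5-fold. At the same unadjusted threshold 3.51% of all genes tested stood above the sum and 2.45% below. The single effects of these genes were selected for being large, which overstates each of them. As the 2 effects have opposite signs, what this does to their sums is not known. The cell cycle list moved in this way. Of 36 members, 26 rose in Hif1a KO and 0 in Ahr KO cells, 20 fell in Ahr KO cells, and in Hif1a Ahr KO cells 0 rose and 3 fell. The median effects were 0.44 in Hif1a KO and -0.36 in Ahr KO cells, and the double effect of -0.06 stood beside a sum of 0.03. For 31 of 36 members the interval lay within 1.5-fold of the sum. The mitotic kinesin Kif11 had 228, 211 and 196 CPM in Hif1a Ahr KO libraries, against 219, 158 and 173 CPM in Hif1a Ahr flox libraries, which overlapped them. It had 290, 316 and 316 CPM in Hif1a KO against 162, 188 and 160 CPM in Hif1a flox, and 142, 126 and 155 CPM in Ahr KO against 211, 185 and 197 CPM in Ahr flox libraries, with no overlap in either line. Its double effect was 0.21 and its sum 0.37 (departure -0.16 ± 0.18). The topoisomerase Top2a had a double effect of 0.05 and a sum of 0.28 after 0.73 in Hif1a KO and -0.45 in Ahr KO cells.

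The 6 opposed genes with the largest difference between the single effects were Gja1, Capn3, H60b, Wnt7b, Apln and Nqo1, and for none was a departure called. Gja1 had 3.52, 3.37 and 3.52 CPM in Hif1a Ahr KO libraries, against 6.44, 10.5 and 4.94 CPM in Hif1a Ahr flox libraries. It had 1.12, 0.331 and 0.831 CPM in Hif1a KO against 13.9, 11.1 and 10.1 CPM in Hif1a flox, and 36.8, 32.9 and 35.3 CPM in Ahr KO against 4.40, 11.4 and 7.12 CPM in Ahr flox libraries. The double effect of -1.07 lay between the single effects of -3.94 and 2.20, beside a sum of -1.74 (departure 0.67 ± 0.63). NAD(P)H quinone dehydrogenase 1 (Nqo1), a classic target of AhR and NRF2, had 1.18, 1.10 and 1.21 CPM in Hif1a Ahr KO libraries, against 1.17, 0.619 and 0.728 CPM in Hif1a Ahr flox libraries. In Hif1a KO libraries it had 5.24, 5.82 and 6.04 CPM against 0.492, 1.01 and 0.888 CPM in Hif1a flox, and in Ahr KO libraries 0.275, 0.213 and 0.207 CPM against 1.04, 0.741 and 0.891 CPM in Ahr flox. The rise of 2.83 without Hif1a thus shrank to 0.47, which was not called, where Ahr was floxed too, beside a sum of 0.90. The peptide hormone gene Apln fell by 3.88 against a sum of -3.63, close to the Hif1a KO effect alone (-4.23), while its rise in Ahr KO cells was 0.60. H60b, a ligand of the receptor NKG2D, had a double effect of -3.01 and a sum of -3.14 at levels below 1.4 CPM.

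Among NK cell surface genes of this class, Cd96, an adhesion receptor, had 154, 123 and 152 CPM in Hif1a Ahr KO libraries, against 237, 205 and 238 CPM in Hif1a Ahr flox libraries. Its effects of 0.58 in Hif1a KO and -1.29 in Ahr KO cells gave a sum of -0.71, and the double effect was -0.66 (departure 0.05 ± 0.17, with an interval of -0.30 to 0.40 that lies within 1.5-fold). The receptor kinase Kit fell by 1.21 against a sum of -0.87, after 0.99 in Hif1a KO and -1.86 in Ahr KO cells. The transcription factor Tcf7 had 86.7, 81.9 and 136 CPM in Hif1a Ahr KO libraries, against 36.3, 17.3 and 32.5 CPM in Hif1a Ahr flox libraries and 42.6 CPM by the sum. It rose in Hif1a Ahr KO cells by 1.82, nearer to the Hif1a KO effect (2.39) than to the sum of 0.57, with a departure of 1.25 ± 0.63 (adjusted p = 0.85). Eomes, a transcription factor of NK cells, rose by 0.77 in Hif1a Ahr KO cells, close to its Ahr KO effect of 0.75, although Hif1a KO cells had -0.60 (departure 0.62 ± 0.27, adjusted p = 0.81).

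Genes that rose in both single KO groups also rose in the double. All 42 of them were called higher in Hif1a Ahr KO cells, with a median of 1.12 beside a median sum of 1.28. None of their departures was called, while 10 of 42 passed an unadjusted p under 0.05 below the sum (2.45% of all genes did) and 1 above. The single effects were again selected for being large, which overstates the sum and lowers these departures. The class includes Trip4 and Csnk1g1 beside the chromosome 9 run, and Lilra5, Gm15931 and Gp6 described with Ncr1. It was not counted again without them. Some rose by no more than in a single KO group, among them Gp6 and Trip4. The inhibitory receptor gene Pdcd1, which encodes PD-1, was low throughout. It had 2.10, 2.16 and 2.61 CPM in Hif1a Ahr KO libraries, against 0.0719, 0.131 and 0.146 CPM in Hif1a Ahr flox libraries and 2.56 CPM by the sum. It had 0.294, 0.239 and 0.353 CPM in Hif1a KO against 0.0379, 0.18 and 0.0567 CPM in Hif1a flox, and 0.293, 0.232 and 0.282 CPM in Ahr KO against 0.0346, 0.076 and 0 CPM in Ahr flox libraries. The double effect was 4.28 and the sum 4.46 (departure -0.19, 95% interval -1.61 to 1.24). On the linear CPM scale the Hif1a Ahr KO level exceeded the added single differences by 1.74 CPM, so that for such genes adding on the log2 scale and adding in CPM are different statements. Ms4a4c, of a family of membrane proteins, had 8.20, 9.66 and 10.9 CPM in Hif1a Ahr KO libraries, against 0.666, 0.356 and 0.566 CPM in Hif1a Ahr flox libraries and 8.52 CPM by the sum (4.17 against 4.01). Its relative Ms4a4b, picked after its values were seen, was more abundant, with 267, 278 and 290 CPM in Hif1a Ahr KO libraries, against 55.0, 35.9 and 47.0 CPM in Hif1a Ahr flox libraries (2.60 against a sum of 2.35). Phactr3, a regulator of protein phosphatase 1, had 4.13 against 3.88.

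Genes that fell in both single KO groups fell in the double by less than the sum. Of 100 such genes, 98 fell in Hif1a Ahr KO cells, with a median double effect of -1.48 and a median sum of -2.03. All 6 called departures belong to this class, and 16 of its genes lie in the chromosome 9 run. In the 84 others the medians were -1.61 and -2.08, and 0 were called. At an unadjusted p under 0.05, 26 stood above the sum (3.51% of all genes did) and 2 below (2.45% of all genes did). Choosing genes on called single effects of the same sign overstates the sum, here away from 0. Adgrg1, an adhesion receptor also known as GPR56, had 20.7, 6.12 and 19.8 CPM in Hif1a Ahr KO libraries, against 88.8, 95.4 and 157 CPM in Hif1a Ahr flox libraries. It had 16.8, 15.8 and 6.98 CPM in Hif1a KO against 98.8, 113 and 108 CPM in Hif1a flox, and 33.8, 32.6 and 26.7 CPM in Ahr KO against 151, 122 and 156 CPM in Ahr flox libraries. All Hif1a Ahr KO libraries lay above the 3.06 CPM of the sum and overlapped the Hif1a KO libraries (departure 2.35 ± 0.68, adjusted p = 0.61). The cadherin Cdh23 fell by 2.26 against a sum of -4.35, after -2.51 in Hif1a KO and -1.84 in Ahr KO cells. Eps8l3 had 0.556, 0.301 and 0.42 CPM in Hif1a Ahr KO libraries, against 3.81, 3.23 and 5.13 CPM in Hif1a Ahr flox libraries, a fall of 3.25 against a sum of -4.91. The T cell receptor subunit gene Cd3g fell by 3.29 against -4.62 (departure 1.34 ± 0.54, adjusted p = 0.81), and Unc5b, a netrin receptor gene, by 3.01 against -4.28. Ccbe1, at levels below 1 CPM, fell by 2.04 against -4.45 (departure 2.42 ± 0.80, adjusted p = 0.68).

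Effects seen in only 1 single comparison were often seen again in the double. Of 2452 genes that rose in Hif1a KO but were not called in Ahr KO cells, 1241 (50.6%) rose in Hif1a Ahr KO cells, and of 2697 that fell, 1377 (51.1%) fell. Of 139 genes that rose in Ahr KO alone, 94 (67.6%) rose in Hif1a Ahr KO cells, and of 246 that fell, 181 (73.6%) fell. The Ahr KO comparison called fewer genes, with larger effects, so these shares were not compared by a test. Of all genes tested, 14.8% rose and 16.5% fell in Hif1a Ahr KO cells. A further 1985 genes were called in Hif1a Ahr KO cells and in neither single comparison, 982 higher and 1003 lower. None of them had a called departure, and 247 passed an unadjusted p under 0.05 (5.96% of all genes did). Choosing genes called in the double and in neither single comparison favours large departures.

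Lipid synthesis genes had departures mostly above 0, few of them beyond their errors. All 23 members of the cholesterol synthesis list had a departure above 0, from 0.06 to 0.57 with a median of 0.25, but 0 were called and 1 passed an unadjusted p under 0.05 above the sum (3.51% of all genes did). In Hif1a KO cells 22 fell, in Hif1a Ahr KO cells 14 and in Ahr KO cells 0. The median double effect was -0.54, the median sum -0.87 and the median Hif1a KO effect -1.14. Squalene epoxidase (Sqle) had 116, 146 and 128 CPM in Hif1a Ahr KO libraries, against 161, 231 and 144 CPM in Hif1a Ahr flox libraries, which overlapped them. In Hif1a KO libraries it had 95.1, 74.5 and 111 CPM, against 214, 183 and 241 CPM in Hif1a flox libraries (departure 0.40 ± 0.29). The list's mean level differed between replicates of Hif1a Ahr flox more than between those of other groups, and leaving out single libraries moved the median departure between 0.14 and 0.43. With the pooled flox baseline it was 0.08. Fatty acid synthesis genes had a median double effect of -0.37 and a median sum of -0.60, with 12 of 13 departures above 0, such as fatty acid synthase Fasn at 0.24 and the desaturase Scd2 at 0.53. The list's median departure was 0.24, and 0.06 with the pooled flox baseline.

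Mitochondrial and ribosome biogenesis genes had medians near their sums, though some medians moved with the pooled flox baseline. The 13 mitochondrially encoded transcripts had a median double effect of 1.00 and a median sum of 1.07. Of these, 12 rose in Hif1a Ahr KO and 13 in Hif1a KO cells, and 0 were called in Ahr KO cells. The cytochrome oxidase gene mt-Co1 had 14397, 18232 and 18044 CPM in Hif1a Ahr KO libraries, against 8048, 8695 and 7333 CPM in Hif1a Ahr flox libraries and 15172 CPM by the sum. Only 1 of the 13 intervals lay within 1.5-fold, so these transcripts were near the sum with wide errors. Of 38 nuclear genes of oxidative phosphorylation, 3 rose and 5 fell in Hif1a Ahr KO, 7 rose and 1 fell in Hif1a KO, and 1 fell in Ahr KO cells. Of the 38, 36 had intervals within 1.5-fold of the sum (62.1% of genes that averaged 1 CPM or more did). The same was so for 16 of 18 TCA cycle genes and 16 of 19 ribosome biogenesis genes. With the pooled flox baseline the median departure of ribosome biogenesis genes moved from 0.08 to 0.23. That of nuclear oxidative phosphorylation moved from -0.04 to 0.08, and that of the TCA cycle from -0.03 to 0.04. Among 20 targets of ATF4, the regulator of amino acid supply, 12 rose in Hif1a Ahr KO, 8 in Hif1a KO and 0 in Ahr KO cells, with a median double effect of 0.66 and a median sum of 0.46. The amino acid transporter Slc7a5 rose by 1.58 against a sum of 1.06, and asparagine synthetase (Asns) by 1.09 against 0.69, and neither departure was called (adjusted p = 0.89 and 0.94). The list's median departure of 0.21 ranged from -0.04 to 0.21 over other scalings, filters and baselines, and from 0.04 to 0.34 when single libraries were left out. Only 5 of the 20 intervals lay within 1.5-fold of the sum.

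**Figure D5:**
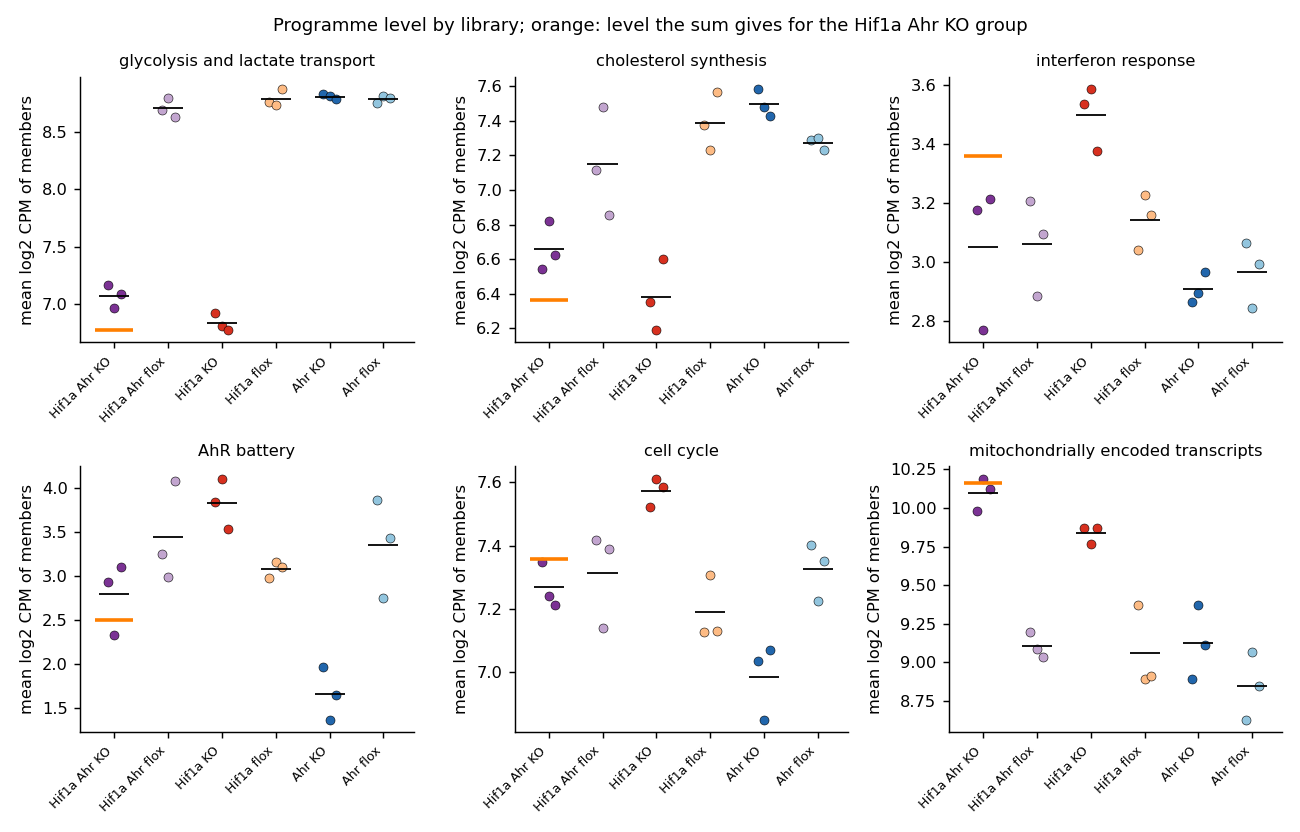
Mean log2 CPM over the tested members of 6 gene lists in each library (points), with group means (black) and the level that the sum gives for the Hif1a Ahr KO group (orange). The Hif1a Ahr KO libraries stand above the orange line for glycolysis and cholesterol synthesis, below it for the interferon response, and at or just below it for the cell cycle list. For the AhR battery and the mitochondrially encoded list they lie on both sides of it. The vertical axes do not start at 0.

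The interferon response leaned below the sum. Of 28 members, 24 had a departure below 0, with a median of -0.30, 6 passed an unadjusted p under 0.05 below the sum (2.45% of all genes did) and 0 above, and 0 were called. The median ranged from -0.35 to -0.30 over other scalings, filters and baselines, and from -0.40 to -0.24 when single libraries were left out. In Hif1a KO cells 15 members rose, in Hif1a Ahr KO cells 8 rose and 6 fell. The guanylate-binding protein Gbp3 had 41.3, 40.7 and 40.9 CPM in Hif1a Ahr KO libraries, against 24.2, 23.5 and 26.2 CPM in Hif1a Ahr flox libraries and 55.5 CPM by the sum (departure -0.44 ± 0.12, adjusted p = 0.54). The ubiquitin-like modifier Isg15, with 2.76, 2.62 and 2.52 CPM in Hif1a Ahr KO against 4.60, 4.01 and 4.71 CPM in Hif1a Ahr flox libraries, fell in Hif1a Ahr KO cells and was called in neither single comparison (departure -0.82 ± 0.25, adjusted p = 0.59). Of 8 dendritic cell markers 6 were tested, with a median departure of -0.78 and 1 at an unadjusted p under 0.05 below the sum (2.45% of all genes were). Most of their summed level was Itgax, which NK cells also express, and their part in the interferon list's values was not tested.

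Genes of the killing machinery mostly had departures above 0, with wide errors. Of 21 cytotoxic effector genes, 17 had a departure above 0, and 0 passed even an unadjusted p under 0.05. Departures ran from -0.26 to 1.07 with a median of 0.19. The median ranged from 0.17 to 0.19 over other scalings, filters and baselines, and from 0.13 to 0.30 when single libraries were left out. The pore-forming protein gene Prf1 had 1803, 2066 and 1724 CPM in Hif1a Ahr KO libraries, against 2242, 3816 and 2042 CPM in Hif1a Ahr flox libraries and 922 CPM by the sum. It fell by 2.32 in Hif1a KO cells, with 817, 414 and 917 CPM against 3938, 2749 and 4040 CPM in Hif1a flox libraries. The Hif1a Ahr KO libraries all exceeded the Hif1a KO ones, and the double effect of -0.53 was not called (departure 1.02 ± 0.52, adjusted p = 0.85). Granzyme B (Gzmb) had a double effect of -0.09 and a sum of -0.28. The granzymes Gzmd, Gzme, Gzmf and Gzmg had departures from 0.71 to 1.07 with errors of 0.56 to 0.85, and reads of these paralogs may be split uncertainly.

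NK receptor genes lay on both sides of their sums. Of 30 members, 14 had intervals within 1.5-fold, 4 passed an unadjusted p under 0.05 below the sum (2.45% of all genes did) and 0 above, and the median departure was -0.13. Beside Ncr1 these were Klra9, Fcgr3 and Cd244a. The departure of Klra9 was called with the replicate number as a block (-0.65, adjusted p = 0.032). The Fc receptor Fcgr3 had 72.4, 56.5 and 61.3 CPM in Hif1a Ahr KO libraries, against 125, 117 and 115 CPM in Hif1a Ahr flox libraries and 94.3 CPM by the sum (departure -0.57 ± 0.15, adjusted p = 0.54, but -0.85 and 0.00069 with the pooled flox baseline). NKG2D (Klrk1) had 0.32 against a sum of 0.37, and the co-receptor Klrd1 0.06 against 0.15. Of 20 tested homing and chemokine receptor genes, 4 passed an unadjusted p under 0.05 above the sum (3.51% of all genes did) and 0 below. The list's median departure was 0.20, and ranged from 0.07 to 0.33 over other scalings, filters and baselines. Among homing genes, the chemokine receptor Cxcr3 had 0.42 against a sum of -0.57 (departure 0.99 ± 0.29, adjusted p = 0.56). Of 16 checkpoint and costimulatory genes, 2 passed an unadjusted p under 0.05 above the sum (3.51% of all genes did) and 0 below. These were Tnfrsf9, the receptor 4-1BB, which fell by 0.62 against a sum of -1.17, and Icos, with -0.02 against -0.79. Lag3 (-1.23 against -1.06) and Cd160 (-2.12 against -1.68) showed no such lean. Lists of ILC1 genes, cytokines, early response genes, IL-2 signalling, TGF-beta signalling, NRF2 genes, mature NK genes and HIF and AhR partners had median departures between -0.09 and 0.05, though that of the cytokines was 0.52 with the pooled flox baseline. Medians near 0 can hide spread: the 16 mature NK genes departed by -0.69 to 1.38. Of these, 3 passed an unadjusted p under 0.05 above the sum and 0 below.

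Total counts ran from 54420649 to 55732940 per library, with 24103 to 25669 genes above 0. Every library carried the NK genes of the marker list, whose 12 members summed to 20092 to 21203 CPM in Hif1a Ahr KO and 19550 to 24535 CPM in Hif1a Ahr flox libraries. They summed to 14905 to 16871 CPM in Hif1a KO, 21248 to 25672 CPM in Hif1a flox, 26385 to 31170 CPM in Ahr KO and 19732 to 26698 CPM in Ahr flox libraries. Mast cell and basophil markers moved with the single effects. Of 5 such markers 2 were tested, and nearly all of their summed level was Mcpt8. They summed to 37.2 to 69.9 CPM in Hif1a Ahr KO against 95.5 to 165 CPM in Hif1a Ahr flox, 9.28 to 34.6 CPM in Hif1a KO against 126 to 173 CPM in Hif1a flox, and 170 to 214 CPM in Ahr KO against 96.9 to 121 CPM in Ahr flox libraries, with no overlap in any line. Macrophage markers (4 of 8 tested, mostly Cd68) summed to 24.1 to 55.7 CPM over all libraries, and stroma and endothelium markers (3 of 7 tested, nearly all Pecam1) to 220 to 342 CPM. Markers of B cells, neutrophils and ILC2 or ILC3 cells summed to at most 8.78 CPM in any library, and Ms4a1, Ly6g, Adgre1 and Il22 were too low to be tested. The 12 T cell markers summed to 510 to 709 CPM over all libraries, though Cd3e, Cd4 and Cd8a stood below 2 CPM on average. Their mean log2 CPM varied within groups, such as from 2.54 to 3.77 in Hif1a Ahr KO libraries. Of the 12, 4 departed above the sum at an unadjusted p under 0.05 (3.51% of all genes did) and 0 below. These were Cd3g, Cd3d, Trbc2 and Trdc. The part of other cells in the results was not tested. In bulk libraries fewer cells of a kind and less RNA per cell cannot be told apart.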

How the data were processed

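RNA of spleen NK cells was sequenced in 18 libraries, 3 in each of 6 groups, with a strand-specific DNBSEQ mRNA protocol per the labels' protocols. The submitters' processing notes name Trim Galore 0.6.4, kallisto 0.4.6, edgeR 3.17 and GRCm39; the annotation and settings are not given in the sources used here. The deposited estimated counts per gene are not normalised, and 65.5% to 67.8% of the values above 0 are not whole numbers. The log2 CPM values deposited by the authors match, without TMM, edgeR's values at a prior count of 2, and served only an alternative fit.

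The tests used edgeR 4.0.16 under R 4.3.3 (TMM, filterByExpr, robust quasi-likelihood fit of 6 group means, 12 residual degrees of freedom, common biological coefficient of variation 0.117). The estimated counts entered edgeR with their fractions and were rounded for DESeq2 1.42.0. A fit on rounded counts, added after seeing the data, tested 16743 genes and called the same 6 departures, with 5242 genes called in Hif1a Ahr KO, 5920 in Hif1a KO and 1157 in Ahr KO cells. The departure is the contrast (Hif1a Ahr KO minus Hif1a Ahr flox) minus (Hif1a KO minus Hif1a flox) minus (Ahr KO minus Ahr flox), 2-sided. SE is the log2 value divided by the square root of F, and intervals are 95%. CPM in the text are TMM-scaled. Of all counts, 0.315% lie on identifiers without a symbol. For 16 symbols on more than 1 tested identifier the one with most counts was used. The fits were tested on simulated data.

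All 34 gene lists (548 genes, all matched) and the members were chosen with earlier results of these data known. Lists are described by counts and medians, without a test. The rule for named genes took Hif1a, Ahr and Ncr1; up to 10 called departures each way with a mean of at least 1 CPM and the call kept in all 18 fits that leave out 1 library; called list members; the 6 largest sums among genes called in both single comparisons in the same direction, rising and falling apart; and the 6 largest differences among those called in opposite directions. Uncalled list members are named with their values. Tpm1 and other genes outside the rule were named after their values were seen. Alternatives were limma 3.58.1 voom, limma trend on the deposited values, DESeq2, other scaling and filters, a pooled flox baseline, the replicate number as a block, and each library left out. Deviations of same-numbered KO and flox libraries correlated at 0.296 to 0.53 in the Hif1a line and 0.333 to 0.534 in the Ahr line, all above the threshold of 0.1 set for pairing. In the Hif1a Ahr line they correlated at 0.0671, 0.448 and 0.27. As 1 of the 9 pairs fell short, the departure, which uses every line, was fitted without the block. The single and double effects, and the gene classes built on their calls, come from the same fit. This leaves out the pairing that all pairs of the Hif1a and Ahr lines showed. Values with the block are given where they change the call of a named gene's departure. Neighbour order comes from GENCODE M21, on another build than the files, so no coordinates of the files are given.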

Additional observations from a re-analysis of the deposited data

Results flagged for a closer look

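For 6 genes the Hif1a KO effect and the Ahr KO effect went in opposite directions and the difference between them was itself tested (Hif1a line minus Ahr line, log2, edgeR's quasi-likelihood F test, adjusted over all genes). The connexin gene Gja1 had -6.141 (adjusted p = 1.756e-06), the muscle protease gene Capn3 5.373 (4.512e-04) and the NKG2D ligand gene H60b -5.249 (6.868e-07). The signalling protein gene Wnt7b had -4.99 (1.968e-05), the peptide hormone gene Apln -4.836 (1.298e-11) and the quinone reductase gene Nqo1 4.765 (7.394e-08). They were chosen as the 6 largest such differences, so their sizes are overstated by that choice. The departure of the double effect from the sum was not called for any of the 6. All 3 libraries of each Hif1a KO and Ahr KO group stood on their own side of their flox libraries for Gja1, H60b, Apln and Nqo1. The genes were picked for calls in these same libraries, so this separation is no further support.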

How the results depend on the processing

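Beside 6 genes called above the sum and 0 below, DESeq2's Wald test called 21 and 4 (13 of the 25 in the chromosome 9 run), limma trend on the deposited log2 CPM 8 and 3, the fit without a filter on low counts 8 and 1, and a baseline pooled over all flox libraries 75 and 47. The 3 genes that limma trend called below the sum were Lilra5, Gm15931 and Trip4. The pooled baseline assumes that the lines do not differ before deletion. A minimum of 2-fold left 0 and 0, and leaving the chromosome 9 run out, chosen after seeing the data, left 0 above. The run holds all 6 by its definition, so that count followed from the choice. Limma voom, DESeq2 size factors and a minimum mean of 1 CPM each called 5 above, all among the 6. With each library left out, 5 to 9 genes were called above and 0 to 8 below, with 8 without Hif1a Ahr KO replicate 1 and 1 without Hif1a Ahr flox replicate 2 or 3. With the replicate number as a block, 30 genes were called above and 5 below, among them Ahr (-1.03, adjusted p = 0.0082). The same fit called 2423 genes in Ahr KO cells beside 1159.

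Without single libraries, Ahr KO calls ranged from 467 to 1382, with 467 and 557 when the first or the third Ahr flox library was left out, and 761, 536 and 679 when the first, the second or the third Ahr KO library was. Hif1a Ahr KO calls ranged from 3792 to 5528, Hif1a KO calls from 4787 to 6282, and genes within 1.5-fold of the sum from 3369 to 4091. No departure of a named gene reversed while called. The departure of Pdcd1 was 1.10 with the pooled baseline and that of Capn3 0.03, both uncalled. Why the settings differ was not tested.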

Other observations

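The fatty acid desaturase Scd1 fell by 3.95 (log2) in Hif1a Ahr KO cells against a sum of -5.17, with an error of 1.47 on the departure. Fut7, a fucosyltransferase gene that was picked after its values were seen, had 25.2, 30.6 and 27.2 CPM in Hif1a Ahr KO libraries, against 11.1, 21.1 and 11.8 CPM in Hif1a Ahr flox libraries. In Hif1a KO libraries it had 6.23, 1.94 and 9.19 CPM, against 21.0, 13.2 and 24.4 CPM in Hif1a flox libraries. All Hif1a Ahr KO libraries lay above and all Hif1a KO libraries below their flox libraries, though the double effect of 0.92 was not called, and the departure was 1.54 ± 0.73 (adjusted p = 0.84). Sec61a2, a translocon subunit gene, had a double effect of 0.08 and a sum of -0.49 (departure 0.57 ± 0.12, adjusted p = 0.27, 0.018 by DESeq2's Wald test and 0.048 with the replicate number as a block). Dok7, a muscle adaptor gene, fell by 1.27 against a sum of -2.52 (departure 1.25 ± 0.30, adjusted p = 0.41, 0.018 by DESeq2's Wald test). Both were picked after their values were seen.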
